A study of Mus musculus with 6 samples.

Results

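The genes of hepcidin and systemic iron handling were compared in the livers of 2 inbred mouse strains. The set was chosen by gene symbol, with earlier results of these data known. It holds the hepcidin genes Hamp and Hamp2, the iron sensing genes Hfe2 (hemojuvelin, called Hjv in the current annotation) and Tfr2, the bone morphogenetic protein gene Bmp6 and its target Id1, the transferrin receptor gene Tfrc, the transferrin gene Trf, and the iron transporter genes Slc40a1 and Slc39a14. Of 45037 probe sets on the array, 20 carried the symbol of 1 of these 10 genes. A probe set is a group of short array probes that reads 1 transcript or a few. Among the 20, 19 carried 1 symbol alone and covered 9 genes. The remaining probe set carries the symbols of both Trf and Srprb, so it was counted apart and gives no value for Trf by itself.

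Liver RNA came from 3 mice of strain SM/J (SM) and 3 of strain NZB/BinJ (NZB), with 1 array per mouse, which asks how untreated livers of the 2 strains differ in gene expression. All 6 were labelled as untreated females of 8 weeks that had been weaned at 3 weeks, kept on chow and fasted for 4 hours, and their livers were perfused with 50 mL of saline. No engineered allele or agent is named for either strain, and the strains differ across the whole genome. NZB mice are known for autoimmunity that includes antibodies to their own red cells.

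Values are log2 expression, so a difference of 1 is a 2-fold difference. The array medians lay between 6.60 and 6.66, and with 3 arrays per strain their number sets how precise any value can be. The hepatocyte transcript Alb, which encodes albumin, read 14.86 to 14.90 on all 6 arrays. That is the top of the scale, as the highest value was 14.9, so Alb could hardly show a difference. The library labelled SM replicate 2 stood apart in Xist, the RNA that coats and silences an X chromosome in females. It read 7.32, against 12.8 and 12.9 in the other SM arrays and 12.6 to 12.7 in NZB. Probe sets of Y-linked genes read at most 5.67 on any array. Even so, 1 of 4 probe sets of the Y-linked gene Uty was called higher in NZB (0.25, limma adjusted p = 0.0412). It read 4.50 to 4.88, so a call can arise at background. Because SM replicate 2 goes against its label in Xist, results are also given without that library.

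Hepcidin, the peptide made from Hamp, is secreted by hepatocytes and limits the entry of iron into blood by closing and degrading ferroportin, the iron exporter encoded by Slc40a1. Its transcription rises when iron is plentiful, through BMP ligands from sinusoidal endothelial cells, the co-receptor hemojuvelin and SMAD proteins, and it also rises with interleukin-6 (IL-6) through STAT3. Tfr2 and Hfe feed the amount of iron-loaded transferrin into the same pathway. The mouse has a second hepcidin gene, Hamp2, which arose by duplication.

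The DNA before the start of both hepcidin genes shows how alike they are and where their known inputs could be read. Both lie on chromosome 7, with the pseudogene Usf2-ps1 between them in the annotation. The 250 bases before each start were taken from RefSeq for GRCm38.p6, the genome of strain C57BL/6J, and not from SM or NZB. Hamp is at chr7:30944030-30944279 and Hamp2 at chr7:30924182-30924431, both on the minus strand. Capitals mark the letters GGCGCC, the core of the BMP response element, and TTCNNNGAA, the form of a STAT site. Each motif reads the same on both strands, and they do not overlap here.
Hamp: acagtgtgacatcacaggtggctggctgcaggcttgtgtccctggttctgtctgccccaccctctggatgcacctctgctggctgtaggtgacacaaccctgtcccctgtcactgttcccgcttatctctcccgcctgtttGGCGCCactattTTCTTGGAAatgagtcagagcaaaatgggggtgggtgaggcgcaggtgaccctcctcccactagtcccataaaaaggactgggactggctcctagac
Hamp2: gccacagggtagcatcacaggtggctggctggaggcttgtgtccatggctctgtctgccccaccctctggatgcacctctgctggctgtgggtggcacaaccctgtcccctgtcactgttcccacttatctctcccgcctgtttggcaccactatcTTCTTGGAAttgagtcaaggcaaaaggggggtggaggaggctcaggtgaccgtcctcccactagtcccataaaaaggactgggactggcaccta
The aligned stretches were identical at 227 of 247 bases (91.9%). In Hamp the GGCGCC match begins 109 bases before the start and the TTCNNNGAA match 97 bases before it. In Hamp2 the TTCNNNGAA match begins 94 bases before the start, and the letters GGCGCC do not occur in the window. Of 32851 such windows of all genes in the RefSeq table, 9.59% hold GGCGCC, 7.02% hold TTCNNNGAA and 0.368% hold both. The table matched 5 of the 10 genes, and of the other 3, 1 of the windows of Tfrc holds GGCGCC while those of Tfr2 and Bmp6 hold neither motif. A match is a description of the letters only.

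Readings were lower in NZB than in SM on 3 hepcidin probe sets and on 1 probe set each for the transferrin receptor Tfrc and the iron importer Slc39a14. Whether the probes match the sequences of both strains equally well was not tested. The hemojuvelin gene Hjv read about 0.36 lower on the log2 scale but did not pass the test. The ferroportin gene Slc40a1, the receptor Tfr2, the ligand Bmp6 and the BMP target Id1 differed by less than 0.12. In all, 5 of the 19 probe sets with 1 gene were lower in NZB at a limma adjusted p under 0.05 and 0 were higher, while 7 were lower and 0 higher at an unadjusted p under 0.05. At the adjusted threshold, 8.69% of all 45037 probe sets were lower and 6.09% were higher, 14.8% in all. The share of all probe sets at an unadjusted p was not computed, so the count of 7 has no baseline here. The median difference was -0.040 over the 19 probe sets and 0.023 over all probe sets. The 5 came from 4 genes, and 3 of them read the 2 hepcidin genes, so they are not separate counts. Without SM replicate 2 the probe sets lower in NZB numbered 2, those of Tfrc and Slc39a14. They numbered 3 without NZB replicate 1 and 3 without NZB replicate 3.

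**Figure D1:**
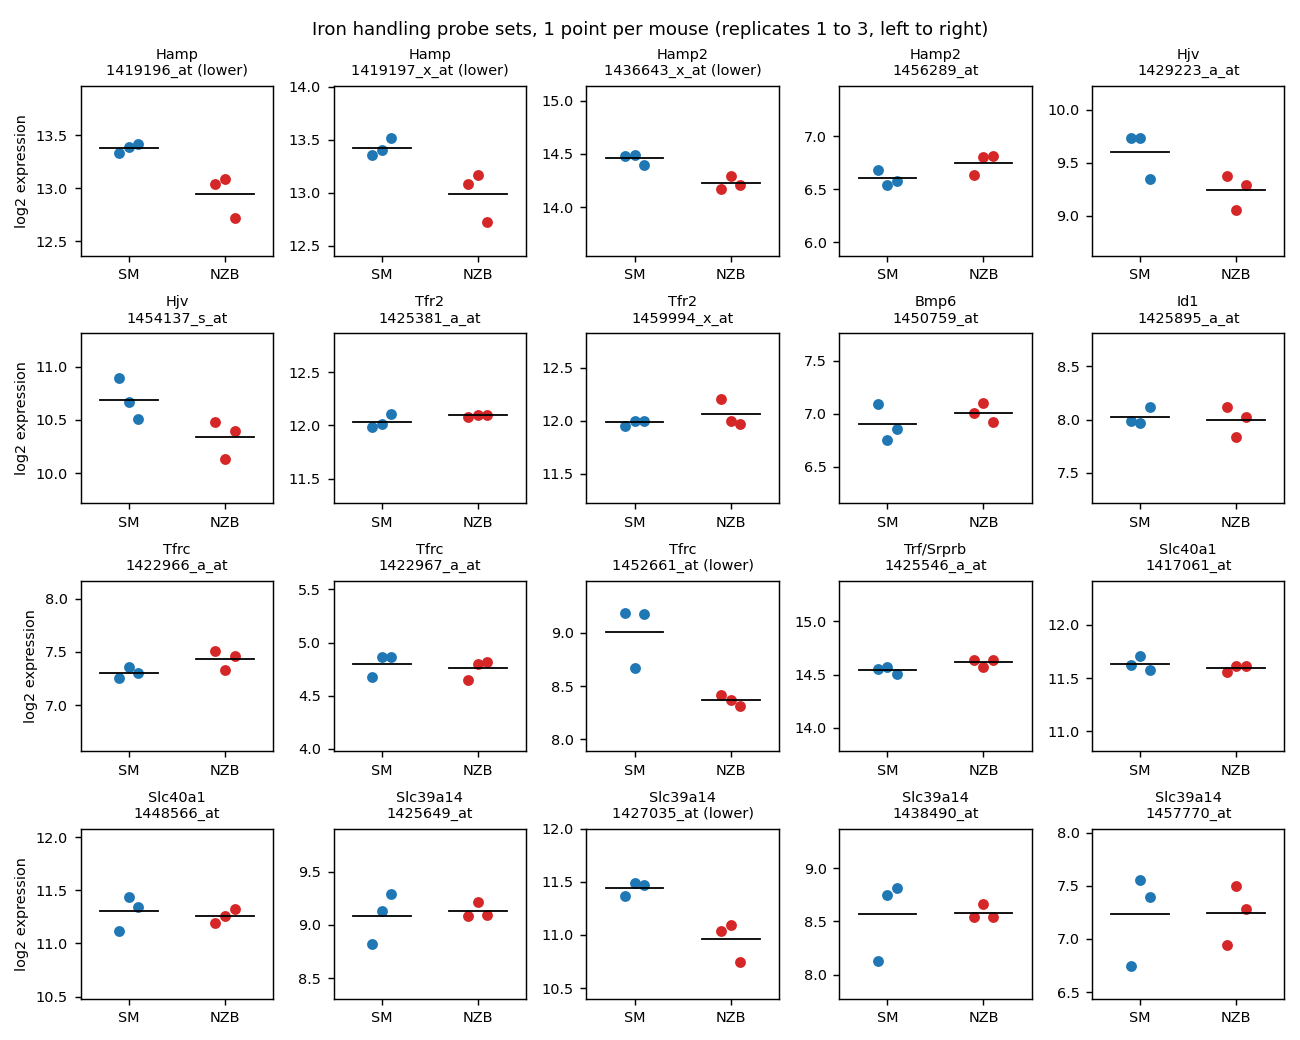
Log2 expression of each of the 20 probe sets, with 1 point per mouse, SM in blue and NZB in red, and a line at each strain's mean. Every panel spans the same range of 1.6 log2 units, and the 5 panels marked as lower show all 3 NZB points under all 3 SM points. Arrays of the 2 strains do not overlap for 34.3% of all probe sets, in either direction.

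Hamp was read by 2 probe sets that gave nearly the same picture. On 1419196_at the SM mice read 13.33, 13.39 and 13.42, and the NZB mice read 13.04, 13.09 and 12.72. Every NZB array was below every SM array, and NZB replicate 3 was the lowest. The SM mean was 13.4 ± 0.049 and the NZB mean 12.9 ± 0.20 (SD, n = 3 each), a difference of -0.43 (SE 0.097, adjusted p = 0.0186), or 1.35-fold lower in NZB. On 1419197_x_at the SM mice read 13.36, 13.40 and 13.52, and the NZB mice read 13.08, 13.17 and 12.73. The strains again did not overlap and the difference was again -0.43 (SE 0.11, adjusted p = 0.0311). Arrays of the 2 strains do not overlap for 34.3% of all probe sets, and NZB is the lower strain in 16.1%. Among the 19 probe sets with 1 gene the arrays do not overlap for 6, so a gap by itself sets no member apart.

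The Hamp call depended on single mice. Without SM replicate 2 the differences were -0.43 and -0.44, with adjusted p = 0.0625 and 0.0805. Without NZB replicate 3, the lowest array, they were -0.32 and -0.30, with adjusted p = 0.0358 and 0.0617. The call of 1419197_x_at also ended without SM replicate 3 (adjusted p = 0.0773) and without NZB replicate 1 (adjusted p = 0.0527). Quantile normalization also ended it (limma adjusted p = 0.0518).

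Hamp2 was read by a bright and a dim probe set, which differed in direction. On 1436643_x_at the SM mice read 14.48, 14.49 and 14.40, and the NZB mice read 14.17, 14.29 and 14.21, again without overlap. The difference was -0.23 (SE 0.064, adjusted p = 0.0395), or 1.18-fold lower in NZB. The highest value on any array was 14.9, so this probe set lies near the top of the scale, where differences can be understated. On 1456289_at the SM mice read 6.68, 6.54 and 6.58 and the NZB mice 6.63, 6.80 and 6.81. Those values overlap, and the difference of 0.14 (95% interval -0.026 to 0.31) did not pass (adjusted p = 0.245).

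The 2 hepcidin genes arose by duplication, and how alike their transcripts are was not tested here. The ending _x_at marks probe sets whose probes can also bind other transcripts. The bright Hamp2 probe set and 1 of the Hamp probe sets carry it, so the gene behind these values is uncertain. The Hamp2 call ended without SM replicate 1 (adjusted p = 0.0897), SM replicate 2 (0.125), NZB replicate 1 (0.115), NZB replicate 2 (0.0533) and NZB replicate 3 (0.121). Over these arrays left out its difference stayed between -0.27 and -0.21.

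Hepcidin is made by hepatocytes, and 2 of 7 measured hepatocyte markers, Tat and Hnf4a, were also lower in NZB (differences of -0.73 and -0.39), with 0 higher at an adjusted or an unadjusted p under 0.05 in limma. Over the brightest probe sets of all genes 11.2% were lower. The other 5 markers did not pass, and the median difference over the 7 was 0.001. Among those 5, Alb, Ttr and Apoa1 read 14.52 to 14.90, near the top of the scale, where differences can be understated. The 3 other probe sets of Hnf4a did not pass either, with differences of -0.26, -0.40 and 0.052. The mean log2 level of the 7 markers was 13.99 to 14.02 in SM and 13.79 to 13.88 in NZB. In whole liver, fewer cells of a type and less RNA per cell cannot be told apart. Without SM replicate 2, 1 of the 7 was lower. The part of these markers in the hepcidin values was not tested.

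**Figure D2:**
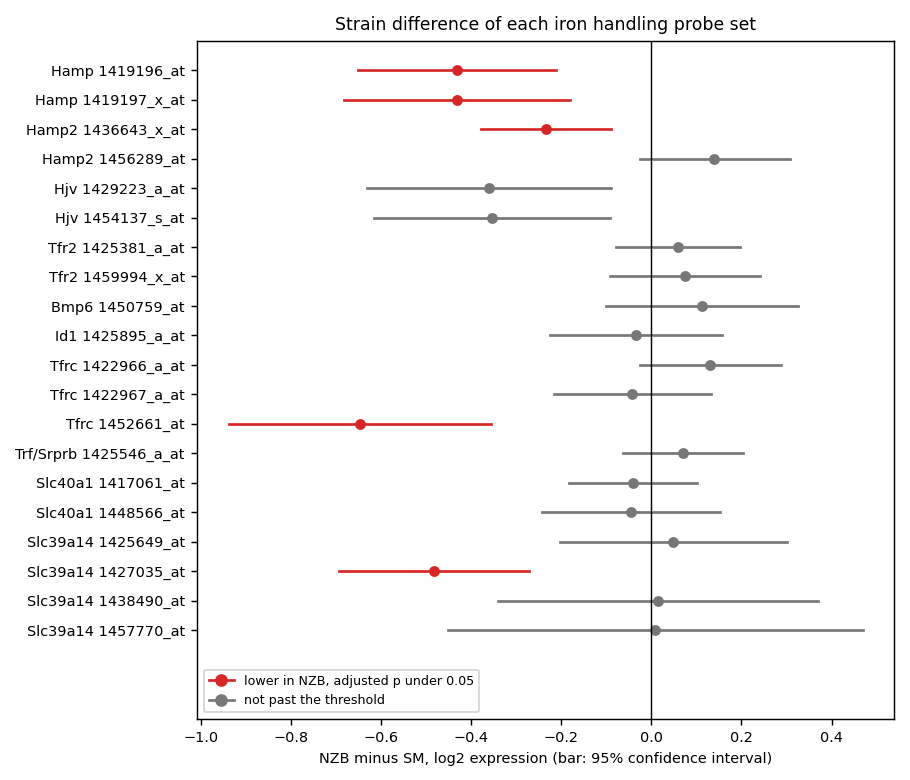
NZB minus SM on the log2 scale for each of the 20 probe sets, with the 95% confidence interval of the limma fit as a bar. The 5 probe sets lower in NZB are red, from -0.23 for Hamp2 to -0.65 for Tfrc, and probe sets of 1 gene differ most for Tfrc and Slc39a14.

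Among the inputs to hepcidin, Hjv encodes hemojuvelin, the co-receptor that lets hepatocytes answer BMP6. Its probe set 1454137_s_at read 10.89, 10.67 and 10.51 in SM and 10.48, 10.13 and 10.40 in NZB, with every NZB array just below the SM arrays. Its probe set 1429223_a_at read 9.73, 9.73 and 9.35 in SM and 9.38, 9.06 and 9.29 in NZB, where SM replicate 3 fell within the NZB range. The differences were -0.35 (SE 0.12, adjusted p = 0.0748) and -0.36 (SE 0.12, adjusted p = 0.0786), and neither passed. Both passed without SM replicate 3 (adjusted p = 0.0400 and 0.0166). With array weights 1429223_a_at passed as well (limma adjusted p = 0.0404).

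Bmp6, the ligand that carries the signal of liver iron stores, read 7.09, 6.75 and 6.86 in SM and 7.01, 7.10 and 6.92 in NZB. The strains overlapped, and the difference of 0.11 (95% interval -0.10 to 0.33) did not pass (adjusted p = 0.480). Id1, a transcription inhibitor induced by BMP signals in hepatocytes, read 7.99, 7.97 and 8.12 in SM and 8.12, 7.84 and 8.02 in NZB. Its difference was -0.034 (95% interval -0.23 to 0.16, adjusted p = 0.836), and its sign turned without SM replicate 3 or without NZB replicate 2 (differences of 0.012 and 0.044). The direction of Id1 was therefore not resolved.

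Tfr2, the hepatocyte receptor that senses iron-loaded transferrin, did not pass the test on either probe set. Probe set 1425381_a_at read 11.99, 12.01 and 12.11 in SM and 12.08, 12.10 and 12.10 in NZB, and 1459994_x_at read 11.95, 12.00 and 12.00 in SM and 12.20, 12.00 and 11.97 in NZB. The differences were 0.059 (95% interval -0.079 to 0.20) and 0.075 (95% interval -0.092 to 0.24), with adjusted p = 0.573 and 0.551.

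Tfrc encodes the transferrin receptor through which most cells take up iron, and its 3 probe sets did not agree. Probe set 1452661_at read 9.19, 8.67 and 9.18 in SM and 8.42, 8.37 and 8.31 in NZB. All NZB arrays were below the SM arrays, and SM replicate 2 was the SM array nearest to them. The means were 9.01 ± 0.30 and 8.37 ± 0.056 (SD, n = 3 each), a difference of -0.65 (SE 0.13, adjusted p = 0.0104), or 1.57-fold lower in NZB. Without SM replicate 2 the difference was -0.82 (adjusted p = 0.000639). Over the 6 arrays left out in turn it lay between -0.82 and -0.56, and the adjusted p reached 0.0489.

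The other Tfrc probe sets showed no such gap. Probe set 1422966_a_at read 7.25, 7.36 and 7.30 in SM and 7.51, 7.33 and 7.46 in NZB, a difference of 0.13 (95% interval -0.025 to 0.29, adjusted p = 0.247). Probe set 1422967_a_at read between 4.65 and 4.86 on all 6 arrays, below the highest Y-linked reading of 5.67, and differed by -0.043 (adjusted p = 0.763). The whole of its range therefore lies at background.

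Tfrc is also abundant in red cell precursors. Of 5 measured erythroid markers, 2 were lower in NZB, Alas2 (-1.10, SE 0.26) and the transcription factor gene Klf1 (-0.73, SE 0.14), and 0 were higher at an adjusted or an unadjusted p under 0.05 in limma. Over the brightest probe sets of all genes 11.2% were lower. The other 3, Slc4a1, Epb42 and Hba-a1, differed by 0.10, 0.11 and 0.073 and did not pass, and the median of the 5 was 0.073. Slc4a1 and Epb42 read 5.90 to 6.23, not far above the highest Y-linked reading of 5.67. The mean log2 level of the 5 was 6.73 to 6.97 in SM and 6.44 to 6.62 in NZB, and the probe set of Hba-a1 read 4.58 to 4.80, at background. The lower markers numbered 1 without NZB replicate 1 and 1 without NZB replicate 3. Their part in the Tfrc difference was not tested.

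Transferrin, the plasma carrier of iron, is made by hepatocytes. The probe set shared by Trf and Srprb read 14.55, 14.57 and 14.51 in SM and 14.64, 14.57 and 14.64 in NZB, near the top of the scale. Its difference was 0.070 (95% interval -0.063 to 0.20, adjusted p = 0.475), and quantile normalization turned it to -0.019.

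Slc40a1, which encodes ferroportin and is known to be high in Kupffer cells, did not pass the test on either probe set. Probe set 1417061_at read 11.62, 11.71 and 11.58 in SM and 11.56, 11.61 and 11.61 in NZB. Probe set 1448566_at read 11.12, 11.44 and 11.34 in SM and 11.19, 11.26 and 11.32 in NZB. The strains overlapped on both, with differences of -0.040 (95% interval -0.18 to 0.10, adjusted p = 0.727) and -0.045 (95% interval -0.24 to 0.15, adjusted p = 0.780). Quantile normalization turned both signs (0.0073 and 0.022), and so did the loss of SM replicate 2 for 1448566_at (0.023). Of 8 Kupffer cell markers, 5 were higher in NZB (7.09% over the brightest probe sets of all genes) and 1, Marco, lower (11.2%). Their mean log2 level was 9.34 to 9.49 in SM and 9.57 to 9.84 in NZB, while the Kupffer cell marker Clec4f differed by 0.033 (adjusted p = 0.845). Marco did not pass without NZB replicate 1 or without NZB replicate 3, and the part of these markers in the Slc40a1 values was not tested.

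Slc39a14 encodes ZIP14, which carries iron that is not bound to transferrin into hepatocytes, and 1 of its 4 probe sets was lower in NZB. Probe set 1427035_at read 11.37, 11.49 and 11.47 in SM and 11.04, 11.09 and 10.75 in NZB. The strains did not overlap, and NZB replicate 3 was the lowest, as it was for Hamp. The means were 11.4 ± 0.065 and 11.0 ± 0.18 (SD, n = 3 each), a difference of -0.48 (SE 0.093, adjusted p = 0.00905), or 1.40-fold lower in NZB. Without SM replicate 2 it was -0.46 (adjusted p = 0.0401), and over the 6 arrays left out in turn it lay between -0.55 and -0.38.

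The other 3 probe sets of Slc39a14 overlapped between the strains. Probe set 1425649_at read 8.82 to 9.29 in SM and 9.08 to 9.22 in NZB, with a difference of 0.049 (95% interval -0.20 to 0.30). Probe set 1438490_at read 8.13 to 8.81 in SM and 8.54 to 8.66 in NZB, with a difference of 0.015 (95% interval -0.34 to 0.37). Probe set 1457770_at read 6.75 to 7.55 in SM and 6.94 to 7.50 in NZB, with a difference of 0.0086 (95% interval -0.45 to 0.47). SM replicate 1 was the lowest SM array on all 3, and without it their differences were -0.081, -0.20 and -0.23, with adjusted p = 0.588, 0.114 and 0.361. The Slc39a14 call thus rests on 1 probe set of 4.

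The genes whose profile over the 6 arrays was closest to that of Hamp were Sulf2, Adsl and Zfp746. Likeness was the root mean square difference between values centred on each gene's mean, over 18184 other genes, and it was 0.050, 0.055 and 0.063 log2 units. For Hamp2 the closest were Ahsa2, Ncoa1 and Glyat, at 0.022, 0.025 and 0.026. These are descriptions of 6 values that mostly share the strain difference.

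The wider set of iron genes moved in both directions. A gene here is read from its brightest probe set. The 6 lists held 82 measured genes: 14 were higher and 17 lower in NZB, and 51 missed the threshold. Over the brightest probe sets of all 18193 genes, 7.09% were higher and 11.2% were lower, 18.3% in all. The median difference was -0.041 over the 82 genes and 0.021 over all genes. Without SM replicate 2, NZB replicate 2 or NZB replicate 3 the higher genes numbered 9 each, and the lower genes numbered 16, 14 and 15.

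**Figure D3:**
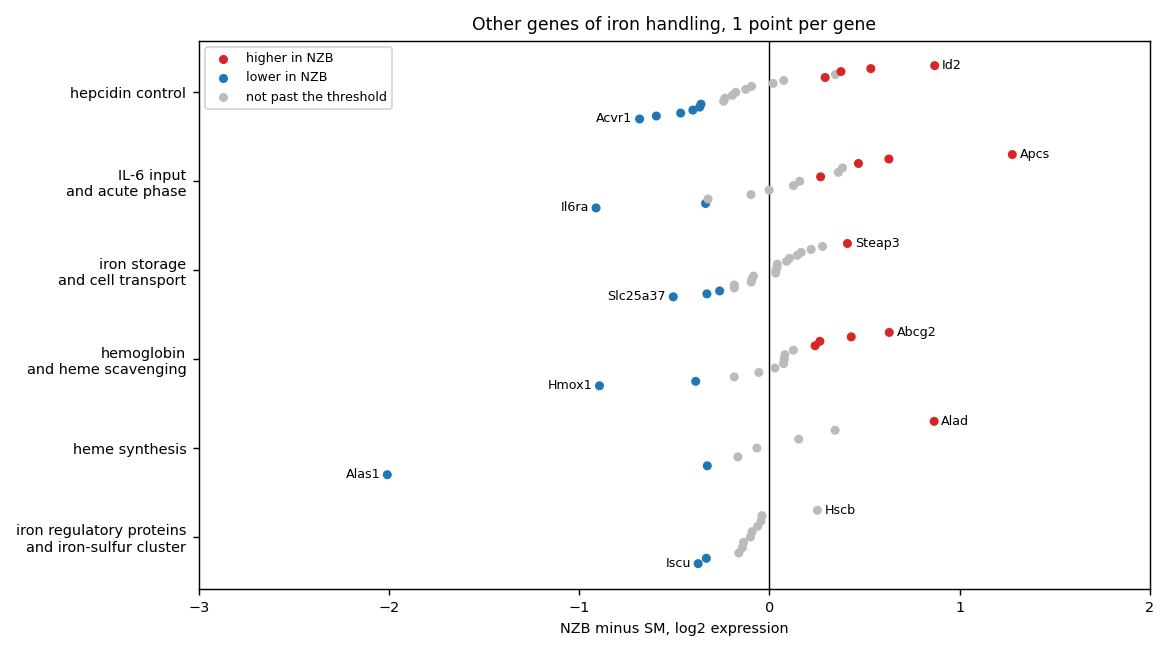
NZB minus SM on the log2 scale for the measured genes of 6 iron lists, 1 point per gene, with red for higher in NZB, blue for lower and grey for not past the threshold. The gene at each end of a list is named, and Alas1 at -2.01 and Apcs at 1.28 lie farthest out.

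In the control of hepcidin, the genes lower in NZB encode BMP ligands, receptors and a SMAD protein, and the higher ones are targets of BMP signals and the protease Tmprss6. Of 19 measured genes, 6 were lower in NZB, 4 were higher and 9 did not pass, with a median of -0.18. Bmp2, a ligand that acts beside BMP6 and is made by sinusoidal endothelial cells, read 8.46, 8.63 and 8.82 in SM and 8.12, 8.05 and 7.95 in NZB (-0.60, SE 0.095, adjusted p = 0.00376). The receptor gene Acvr1, which encodes ALK2, read 8.58, 8.66 and 8.47 in SM and 8.05, 7.76 and 7.84 in NZB (-0.68, SE 0.088, adjusted p = 0.00126). Both were lower in every NZB mouse than in any SM mouse. The ligand gene Bmp4 differed by -0.47 (SE 0.13, adjusted p = 0.0429). The remaining lower members, named after their values were seen, were the receptor genes Bmpr2 (-0.36) and Acvr2a (-0.37) and the common SMAD gene Smad4 (-0.40). Acvr1 has 2 other probe sets that did not pass, with differences of -0.28 and 0.065, and 2 of the 3 probe sets of Smad4 were lower. The 2 other probe sets of Bmpr2 did not pass, at 0.16 and -0.081, nor did the other probe set of Acvr2a, at -0.11.

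The higher members included 3 genes that BMP signals are known to induce. Id2 read 9.81, 9.64 and 9.82 in SM and 10.66, 10.81 and 10.41 in NZB, or 1.83-fold higher (0.87, SE 0.10, adjusted p = 0.000826). Id3 read 8.63, 8.43 and 8.48 in SM and 9.01, 9.28 and 8.84 in NZB (0.53, SE 0.11, adjusted p = 0.0119). Atoh8, a transcription factor gene of the same response, differed by 0.38 (SE 0.099, adjusted p = 0.0342). Neither Id1 nor Smad7, an inhibitor of SMAD signals that the pathway induces, passed, at -0.034 and -0.13 (adjusted p = 0.836 and 0.396).

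Tmprss6 encodes matriptase-2, a hepatocyte protease that cuts hemojuvelin and lowers hepcidin. It read 12.19, 12.20 and 12.30 in SM and 12.59, 12.46 and 12.53 in NZB, with no overlap and a difference of 0.29 (SE 0.066, adjusted p = 0.0185). Hfe, which encodes the partner of the transferrin receptors that is mutated in hemochromatosis, read 10.46, 10.34 and 10.09 in SM and 10.60, 10.78 and 10.56 in NZB. Its difference of 0.35 (SE 0.10, adjusted p = 0.0515) did not pass, and it passed in 7 of 14 other settings (adjusted p from 0.0214 to 0.164).

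Several of these calls depended on 1 mouse. The higher members numbered 2 without SM replicate 2, 2 without NZB replicate 1 and 2 without NZB replicate 3. Tmprss6 lost its call in each of these (adjusted p = 0.0688, 0.0643 and 0.0652), Id3 without SM replicate 2 (0.0513), and Atoh8 without SM replicate 1 (0.0796), NZB replicate 1 (0.0552), NZB replicate 2 (0.0574) or NZB replicate 3 (0.120). Bmp4 lost it without SM replicate 1 (0.0960), SM replicate 3 (0.0798), NZB replicate 1 (0.112) or NZB replicate 2 (0.141), and with array weights (0.0726), and Acvr2a without NZB replicate 2 (0.0501) or NZB replicate 3 (0.0575). Sinusoidal endothelial markers, from the cells that make Bmp2 and Bmp6, were split, with 2 of 9 higher and 2 lower. Over the brightest probe sets of all genes 7.09% were higher and 11.2% were lower. When any of the 6 arrays was left out, 1 of these endothelial markers was higher and 2 were lower. Their mean log2 level was 9.32 to 9.40 in SM and 9.33 to 9.46 in NZB, which overlap, and their part in the Bmp2 difference was not tested.

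The IL-6 arm of hepcidin control was mixed. Among its 13 measured genes 4 were higher and 2 lower in NZB, 7 did not pass, and the median was 0.16. Il6ra, the receptor subunit that binds IL-6, read 10.17, 10.69 and 10.49 in SM and 9.71, 9.20 and 9.71 in NZB, or 1.88-fold lower (-0.91, SE 0.16, adjusted p = 0.00625). Its other probe set, 1422270_a_at, overlapped between the strains and did not pass (-0.32, adjusted p = 0.112). The kinase gene Jak1 was lower too (-0.34, SE 0.060, adjusted p = 0.00616). The signalling subunit gene Il6st, named after its value was seen, was higher (0.27, SE 0.059). Of its 3 other probe sets, 2 were also higher, while 1437303_at lay on the other side and did not pass (-0.32, adjusted p = 0.101). Stat3, the factor that carries the signal to Hamp, differed by -0.0019 on its brightest probe set (adjusted p = 0.991). Another Stat3 probe set was higher by 0.44 (adjusted p = 0.0225), so the probe sets of this gene disagree.

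Acute phase genes were higher where they passed, which held for Apcs and Saa3 alone. Saa1, Saa2, Lbp, Fgb and Lcn2 did not pass, with differences of 0.36, 0.38, 0.13, 0.16 and -0.32. Apcs, the serum amyloid P gene, read 11.89, 11.74 and 11.52 in SM and 13.11, 12.95 and 12.92 in NZB, 2.42-fold higher (1.28, SE 0.098, adjusted p = 6.9e-05). Saa3, an amyloid A gene that macrophages also make, differed by 0.63 (SE 0.16, adjusted p = 0.0322), and NZB replicate 3 was the highest at 9.23. Without that array the difference was 0.40 (adjusted p = 0.0169). Socs3, the feedback inhibitor of STAT3, differed by 0.47 (SE 0.12, adjusted p = 0.0306), and its 2 other probe sets were also higher. The higher genes of this list numbered 1 without SM replicate 2, 2 without SM replicate 3 and 2 without NZB replicate 2. Saa3 lost its call without SM replicate 1 (adjusted p = 0.0617), SM replicate 2 (0.0937) or SM replicate 3 (0.0645), Socs3 without SM replicate 2 (0.107), SM replicate 3 (0.0565), NZB replicate 2 (0.106) or NZB replicate 3 (0.117), and Il6st without SM replicate 2 (0.0616) or NZB replicate 2 (0.0616).

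Iron storage and transport within cells had 4 called genes. Of 19 measured genes, 1 was higher, 3 were lower and 15 did not pass, with a median of 0.034. Fth1, the ferritin heavy chain, differed by 0.034 (95% interval -0.10 to 0.17, adjusted p = 0.760), and quantile normalization turned its sign (-0.0048). Slc11a2, the iron importer DMT1, differed by 0.15 (adjusted p = 0.276), although another of its probe sets was higher by 0.35 (adjusted p = 0.0159). Steap3, a ferrireductase of the transferrin cycle, was higher in NZB (0.41, SE 0.070, adjusted p = 0.00509) on all 3 of its probe sets. The lower genes were Slc25a37, the mitochondrial iron importer mitoferrin (-0.51, SE 0.083, adjusted p = 0.00433), Ncoa4, the receptor that delivers ferritin for breakdown (-0.33, SE 0.066, adjusted p = 0.0107), and Pcbp1, an iron chaperone (-0.26, SE 0.065, adjusted p = 0.0269). Leaving out SM replicate 2, SM replicate 3 or any NZB array ended the Pcbp1 call (adjusted p = 0.0524 to 0.0853) as did quantile normalization (0.101), and the higher genes numbered 2 without SM replicate 1. The other probe set of Ncoa4 overlapped between the strains and did not pass (-0.10, adjusted p = 0.394). Ftl1 was not analysed here.

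Among genes that recover iron from heme, 4 of 13 were higher, 2 were lower and 7 did not pass, with a median of 0.078. Hmox1, the heme oxygenase that frees iron from heme, read 8.79, 9.51 and 9.44 in SM and 8.37, 8.41 and 8.27 in NZB, or 1.86-fold lower (-0.89, SE 0.16, adjusted p = 0.0073). SM replicate 1 was the lowest SM array, still above all NZB arrays. The heme transporter family gene Flvcr2 was lower as well (-0.39, SE 0.075). The biliverdin reductase genes Blvrb (0.43, SE 0.070) and Blvra (0.26, SE 0.070) and the transporter gene Abcg2 (0.63, SE 0.084) were higher, as was the heme scavenger hemopexin, Hpx (0.24, SE 0.059), named after its value was seen. The higher genes numbered 2 when SM replicate 1, SM replicate 3 or any NZB array was left out. Blvra then lost its call (adjusted p = 0.0503 to 0.118), as did Hpx (0.0582 to 0.0787), and Blvra also lost it with array medians aligned (0.0586). Hpx also lost it after quantile normalization (0.0640).

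Heme synthesis held the largest difference of the 6 lists. Alas1, the rate-limiting enzyme of heme synthesis in liver, read 12.25, 13.21 and 13.21 in SM and 10.78, 11.62 and 10.25 in NZB. The strains did not overlap, but the mice of a strain differed by 0.96 in SM and 1.37 in NZB. Expression in NZB lay 4.03-fold below that in SM (-2.01, SE 0.34, adjusted p = 0.00517), and its other probe set was also lower (-1.52). Trended and robust variance estimates in limma ended the call (adjusted p = 0.0644, against 0.00211 to 0.0258 under the other settings). The next enzyme, Alad, went the other way (0.87, SE 0.10, adjusted p = 0.000717), and Fech, which inserts the iron, was lower (-0.33, SE 0.060, adjusted p = 0.00741). The other 4 of 7 measured genes did not pass, and the median was -0.066.

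The iron regulatory proteins bind ferritin and transferrin receptor messages according to cell iron. Neither of their genes passed: Aco1 differed by -0.039 (adjusted p = 0.761) and Ireb2 by -0.10 (adjusted p = 0.401). Of 11 measured genes of these proteins and of iron-sulfur cluster assembly, 2 were lower, the scaffold gene Iscu (-0.37, SE 0.067, adjusted p = 0.00647) and the carrier gene Isca1 (-0.33, SE 0.063, adjusted p = 0.00824). In limma 0 were higher, and 1 was at an unadjusted p under 0.05. Without SM replicate 1, 1 was higher. The list's median was -0.10, and the other probe set of Isca1 did not pass (-0.14, adjusted p = 0.176).

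**Figure D4:**
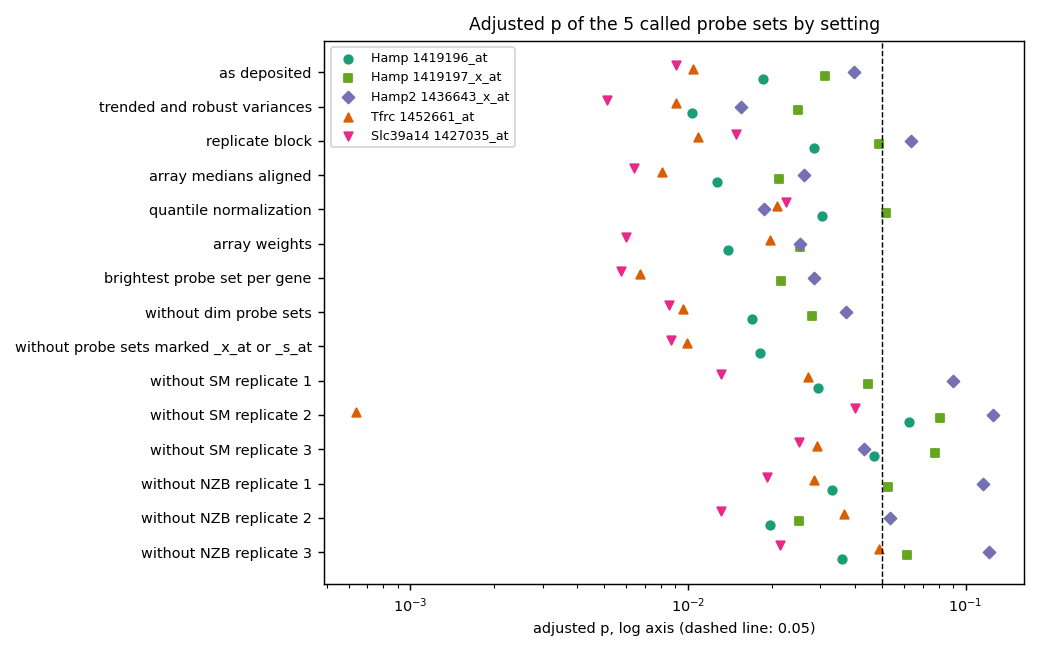
Adjusted p of the 5 probe sets lower in NZB, on a log axis, as deposited and under the other settings, with a dashed line at 0.05. Those of Slc39a14 and Tfrc stay left of the line throughout, from 0.00511 to 0.0401 and from 0.000639 to 0.0489, while those of Hamp and Hamp2 cross it under some settings.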

How the data were processed

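Per the labels, liver RNA of 6 mice was hybridised to 1 array each. Per the submitters' processing notes the deposited values come from RMA, with its version and settings not given in the sources used here. Deposited values were taken to be on a log2 scale, since they reach 14.9 and a natural log of 16-bit scanner readings could not. Their scale and centring are not stated, and no further normalization was applied.

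Probe sets were named through the platform annotation and symbols updated by RefSeq gene ID: 34945 had 1 gene, 932 several and 9160 none. Strain differences were tested two-sided in R 4.3.3 with lmFit and eBayes of limma 3.58.1, and p-values were adjusted over all 45037 probe sets by Benjamini-Hochberg, with a threshold of 0.05. The fit was tested on simulated data. An exact permutation test of 3 mice against 3 cannot go below p = 0.1, so none was used. P-values set each strain difference against the spread between these mice, as moderated by eBayes over all probe sets.

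The 10 genes and the lists were chosen with earlier results of these data known. From each list the text names up to 3 genes per direction with the largest differences past the threshold and no overlap, plus Hfe, Tmprss6, Smad7, Atoh8, Il6ra, Stat3, Fth1, Ftl1, Slc11a2, Hmox1, Aco1 and Ireb2, and the 3 profiles nearest to Hamp and Hamp2. Further marker lists had 7 stellate cell genes and 6 B and plasma cell genes. Of the stellate cell genes 0 were called in limma, and 2 were called higher without SM replicate 1. At an unadjusted p under 0.05, 3 of them were higher and 1 lower. Of the B and plasma cell genes 3 were higher and 0 lower, with 5 and 0 unadjusted. These 3 were Ighm (4.35), Jchain (4.28) and Ms4a1 (0.38). Ighm has 10 other probe sets, with 3 higher and 0 lower. The part of these genes in the iron values was not tested. Alternatives were other variance, weighting, scaling, filter and block settings, and each array left out.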

Additional observations from a re-analysis of the deposited data

How the results depend on the processing

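All 5 probe sets lower in NZB kept their direction under each alternative in which they were tested. Those lower in NZB numbered 3 without probe sets marked _x_at or _s_at, since 2 of the 5 are then not tested, and 2 to 6 over the 6 arrays left out in turn. The higher member probe sets numbered 0 throughout. Over the same arrays the higher genes of the 6 lists numbered 9 to 13 and the lower ones 14 to 17. Small differences that did not pass changed sign. With array medians aligned, Slc39a14 1438490_at and 1457770_at were at -0.018 and -0.024, and with array weights at -0.047 and -0.089. After quantile normalization Slc40a1 was at 0.0073 and 0.022, Slc39a14 1457770_at at -0.0083, the Trf and Srprb probe set at -0.019, Fth1 at -0.0048 and Stat3 at 0.056. Over the 6 arrays left out in turn the range crossed 0 for 7 results: -0.134 to 0.023 for Slc40a1 1448566_at, -0.097 to 0.044 for Id1, -0.103 to 0.0094 for Tfrc 1422967_a_at and -0.069 to 0.051 for Stat3. For Slc39a14 it was -0.081 to 0.153 on 1425649_at, -0.202 to 0.136 on 1438490_at and -0.232 to 0.169 on 1457770_at. The cause was not tested.

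Mice with the same replicate number did not deviate together (r = 0.037, -0.055 and 0.025 across probe sets), and not every mouse correlated best with its own number, so the numbers were not taken as pairs. With the replicate number as a block, 5 member probe sets were lower and 0 higher, and 16 list genes were higher and 17 lower. Under the block Hamp2 1436643_x_at (limma adjusted p = 0.0637) and Hpx (0.0547) did not pass, while Hjv 1454137_s_at (0.0469) and Hfe (0.0381) did. Over all probe sets the block gave 6006 calls against 6659. Scaling moved the median of all probe sets by under 0.1. Differences close to background or to saturation may be compressed.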
